A study of Mus musculus with 14 samples.

Results

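The endoplasmic reticulum (ER) is where secreted and membrane proteins are folded, and 36 genes of that work were followed through 14 microarrays of B16-F10 cells, a line grown from a mouse melanoma. The genes are chaperones, disulfide enzymes, lectins, sensors of unfolded protein, the machinery of ER-associated degradation (ERAD) and parts of the translocation channel. The group called sensors here also holds Xbp1, which encodes a transcription factor, and Wfs1, a membrane protein, which are no sensors. The genes were picked by name from a hand-written list, and all 36 were found among the 12393 genes of the array. Each is read from its probeset, a group of short probes for the RNA of a gene, with the highest mean signal over the 14 arrays. Of the 36, 13 have 1 probeset and 23 have several, 81 probesets in all.

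The arrays comprise 5 of control cells, 3 of cells given Lipofectamine, 3 of heat-shocked cells and 3 of cells given benzyl alcohol, a membrane fluidizer, each labelled a biological replicate. Control cells were untreated. For Lipofectamine, cells stood 3 h in Opti-MEM, a medium of reduced serum, with the liposomes alone and no plasmid, and then 30 min in RPMI medium with serum, so that the liposomes and the change of medium cannot be told apart. Heat-shocked cells were held at 42.5°C for 1 h and returned to 37°C for 30 min. Benzyl alcohol was given at 40 mM for 1 h, with 3 h of recovery by the protocol and 30 min by the design text of the series, a conflict that was not settled. The treatments therefore differ in length as well as in kind. All groups are of 1 cell line.

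Proteins enter the ER through the SEC61 channel, receive sugars and disulfide bonds, and are held by chaperones until folded. Those that fail are drawn back to the cytosol and destroyed, which is ERAD. When unfolded protein builds up, the sensors PERK (gene Eif2ak3), IRE1 (gene Ern1) and ATF6 start the unfolded protein response, in which ATF6 and the spliced form of XBP1 switch on chaperone and ERAD genes, while PERK slows translation and favours the factors ATF4 and CHOP. Cells that secrete much protein are known to keep this system active.

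The values are log2 signals, on which a difference of 1 is a 2-fold change. Rises and falls are those with an adjusted p under 0.05 by limma, where the adjustment (Benjamini-Hochberg) ran over the whole set of 22626 probesets. Array medians lay between 7.03 and 7.12. Genes of pigment cells had a mean signal of 11.4 to 12.1 in every array, and markers of macrophages, fibroblasts and epithelial cells had means of 5.27 to 6.68, under the array medians. Single markers read above these medians, the macrophage gene Csf1r in every array (7.73 to 8.58) and Krt8 and Col1a2 in some. The 5 control arrays were not alike. Control arrays 1 and 3 stood apart from control arrays 2, 4 and 5 in these very genes, a division found from the values of these arrays. It is therefore given as a description with no test, and comparisons with the control are given with all 5 arrays and with either set left out. Which arrays are left out fixes the direction and the excess of calls there, so those counts are a description and support nothing.

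Stretches before the start of transcription were read from RefSeq for 31 of the 36 genes (mouse build GRCm38.p6, 32 start sites), because several of these genes share a known control element, the ER stress response element. It is written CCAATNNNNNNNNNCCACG, where N is any base, and was searched on both strands of the 250 bases before each start. It was found before 10 of 32 starts of these genes (31.2%) and before 37 of 32851 starts of all genes (0.113%). The shorter element ERSE-II, ATTGGNCCACG, was found before 1 of the 32, that of Herpud1, and before 0.0304% of all starts. The 150 bases before the start are shown for 5 genes on which the results turn, 5′ to 3′ on the strand of the gene, with the element in capitals. An element on the other strand is read backwards, as CGTGG to ATTGG.
Hspa5 (chr2:34771940-34772089, plus strand): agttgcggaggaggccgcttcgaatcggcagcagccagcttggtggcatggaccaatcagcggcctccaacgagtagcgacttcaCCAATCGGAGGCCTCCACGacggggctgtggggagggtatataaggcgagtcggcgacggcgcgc
Creld2 (chr15:88819496-88819645, plus strand): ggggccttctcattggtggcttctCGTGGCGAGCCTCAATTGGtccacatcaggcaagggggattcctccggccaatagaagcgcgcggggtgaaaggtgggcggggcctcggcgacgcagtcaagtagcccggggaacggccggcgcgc
Syvn1 (chr19:6046426-6046575, plus strand): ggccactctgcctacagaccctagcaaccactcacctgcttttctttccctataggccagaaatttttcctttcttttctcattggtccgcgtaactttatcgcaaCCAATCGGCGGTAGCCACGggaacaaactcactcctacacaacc
Hsp90b1 (chr10:86705445-86705594, minus strand): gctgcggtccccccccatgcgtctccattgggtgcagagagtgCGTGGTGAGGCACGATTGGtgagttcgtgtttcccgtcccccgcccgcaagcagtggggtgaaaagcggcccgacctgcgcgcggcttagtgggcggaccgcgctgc
Herpud1 (chr8:94386279-94386428, plus strand): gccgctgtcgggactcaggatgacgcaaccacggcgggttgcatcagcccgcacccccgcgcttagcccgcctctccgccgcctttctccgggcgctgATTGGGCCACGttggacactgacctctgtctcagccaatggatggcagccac

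The element of the other genes, and the match of Hsp90b1 that lies further from its start, are given with their positions counted from the start of transcription. Capitals mark the outer bases that the pattern fixes.
Calr (−162 to −144): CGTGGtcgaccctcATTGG
Canx (−145 to −127): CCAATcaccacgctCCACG
Derl3 (−156 to −138): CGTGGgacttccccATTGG
Dnajc3 (−105 to −87): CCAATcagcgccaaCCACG
Ero1b (−201 to −183): CGTGGtcccgcctcATTGG
Pdia6 (−98 to −80): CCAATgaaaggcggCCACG
Hsp90b1 (−212 to −194): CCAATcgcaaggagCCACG

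The search held other elements too. TGACGTGG, an element of ATF6 and XBP1, was found before 0 of the 32 starts (0.563% of all starts). TGATGCAA, an element of ATF4 and CHOP, was found before 1, again Herpud1 (0.791% of all), at −112 to −105. GAANNTTCNNGAA, a form of the heat shock element, was found before 0 of the 31 genes searched (0.514% of all genes searched). A match describes these letters in these windows and shows no binding, and no match says only that the letters are not there. No element found overlapped another. The element did not sort the genes by the division of the control arrays. The 10 genes with it differed by a median of 0.919 between control arrays 1 and 3 and the others, and the 21 searched without it by 0.883. Of the 25 other genes of the genome with the element, 7 were measured, and their median was 0.0654, with control arrays 1 and 3 both above in 3.

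Herpud1, a membrane protein of ERAD, had the widest gap within the control group. Its signal was 10.90 and 11 in control arrays 1 and 3 and 8.61, 8.67 and 8.58 in control arrays 2, 4 and 5. It was 10.05, 10.00 and 9.91 with Lipofectamine, 10.53, 10.36 and 10.54 with heat shock and 8.53, 8.27 and 9.57 with benzyl alcohol. Control arrays 1 and 3 were thus above every treated array, the Lipofectamine and heat shock arrays lay between the sets of control arrays, and the benzyl alcohol arrays lay about the lower set, with array 3 above it. The gap was 2.33, a 5.04-fold difference of means.

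Over the 36 genes, control arrays 1 and 3 were both above control arrays 2, 4 and 5 in 33 and overlapped with them in 3, where 19.5% of all genes were both above. The median difference was 0.872, with a range of −0.04 to 2.33, against −0.04 over all genes. At least 2-fold gaps were seen in 13 of the 36 and in 1.59% of all genes. All 9 chaperones (median 1.15), all 6 disulfide enzymes (1.13) and both lectins (0.398) had control arrays 1 and 3 on top, as had 4 of 5 sensors (0.79), 8 of 9 ERAD genes (0.933) and 4 of 5 translocation genes (0.278). The exceptions were Ern1, Derl3, a small channel protein of ERAD, and Ssr3, a subunit of the translocon-associated complex.

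**Figure D1:**
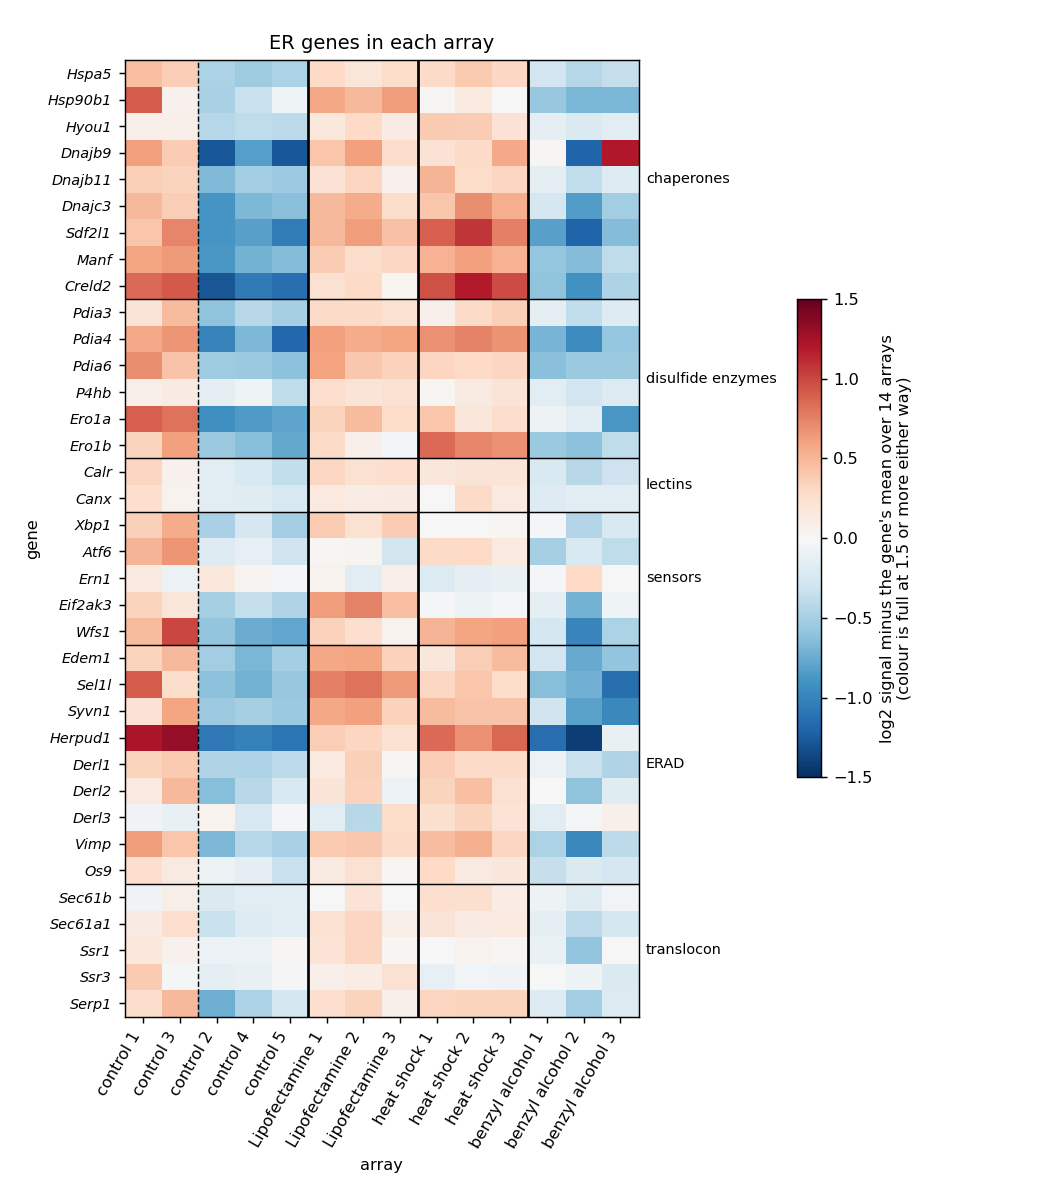
Log2 signal of each of the 36 genes (vertical axis, grouped by role) in each of the 14 arrays (horizontal axis) minus the mean of that gene over the arrays, with red above and blue below the mean. In most chaperones, disulfide enzymes, lectins and ERAD genes, control arrays 1 and 3, left of the dashed line, share the red of the Lipofectamine and heat shock arrays. Control arrays 2, 4 and 5 share the blue of the benzyl alcohol arrays there. Sensors and translocation genes are mixed. Eif2ak3 and Ssr3 with heat shock (9.024 and 11.443) and Atf6 with Lipofectamine (7.739) are below the means over the arrays (9.061, 11.517 and 7.809).

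Among the chaperones, Creld2, a secreted folding factor, was at 11.79 and 11.86 in control arrays 1 and 3 and at 9.65, 9.88 and 9.80 in the others. Its 3 heat shock arrays read 11.89, 12.13 and 11.91, its Lipofectamine arrays 11.17, 11.24 and 10.97, and its benzyl alcohol arrays 10.33, 10.03 and 10.47. The treated groups did not overlap with each other, and the control range spanned both the benzyl alcohol and the Lipofectamine arrays. Sdf2l1, a partner of the chaperone BiP, was at 10.79 and 11.10 in control arrays 1 and 3, and at 9.48, 9.56 and 9.32 in the others. It stood at 10.85, 11 and 10.81 with Lipofectamine, at 11.26, 11.44 and 11.12 with heat shock, and at 9.55, 9.17 and 9.72 with benzyl alcohol. Heat shock arrays were the highest of all arrays for this gene, and the benzyl alcohol arrays lay about the lower control arrays.

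Dnajb9, a co-chaperone of BiP, read 9.82 and 9.59 in control arrays 1 and 3, and 7.94, 8.38 and 7.94 in the others. Its Lipofectamine arrays were 9.62, 9.82 and 9.47, and its heat shock arrays 9.42, 9.49 and 9.78. With benzyl alcohol it was 9.23, 8.01 and 10.41, the widest spread of any of these genes within a treated group (SD 1.201). Benzyl alcohol array 3 was above every other array for Dnajb9, and array 2 was among the lowest. Hspa5, which encodes BiP, the main chaperone of the ER, was at 13.30 and 13.22 in control arrays 1 and 3 and at 12.37, 12.31 and 12.37 in the others. The difference of 0.906 (1.87-fold) came with 13.15, 13.03 and 13.12 for Lipofectamine, 13.13, 13.24 and 13.16 for heat shock, and 12.56, 12.42 and 12.49 for benzyl alcohol. The Lipofectamine and heat shock arrays of Hspa5 were close to control arrays 1 and 3, and no treated array lay below the lower set. Dnajc3, an inhibitor of the kinase PERK and a co-chaperone, differed by 1.15, Manf, a secreted survival factor, by 1.36, and Dnajb11, a further co-chaperone of BiP, by 0.921.

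Ero1a and Pdia4 led the disulfide enzymes. Ero1a, an oxidase that recharges the disulfide isomerases, read 11.63 and 11.55 in control arrays 1 and 3 and 9.81, 9.88 and 9.94 in the others. With Lipofectamine it was 11.06, 11.21 and 11.01, with heat shock 11.15, 10.90 and 10.99, and with benzyl alcohol 10.66, 10.56 and 9.86. Here benzyl alcohol arrays 1 and 2 stood above the lower control arrays and array 3 within them. Pdia4, a disulfide isomerase, read 11.26 and 11.35 in control arrays 1 and 3 and 9.69, 10.01 and 9.51 in the others, beside 11.30, 11.24 and 11.28 with Lipofectamine, 11.38, 11.43 and 11.36 with heat shock and 9.99, 9.74 and 10.11 with benzyl alcohol. Wfs1, a membrane protein of the ER, differed by 1.45 between the sets, and Pdia3, an isomerase that works with the lectins, by 0.83.

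The spread within the control group was wide in these genes. Their median SD was 0.503 over the 5 control arrays, 0.117 with Lipofectamine, 0.0797 with heat shock and 0.18 with benzyl alcohol, while over all genes it was 0.158, 0.165, 0.0942 and 0.149.

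**Figure D2:**
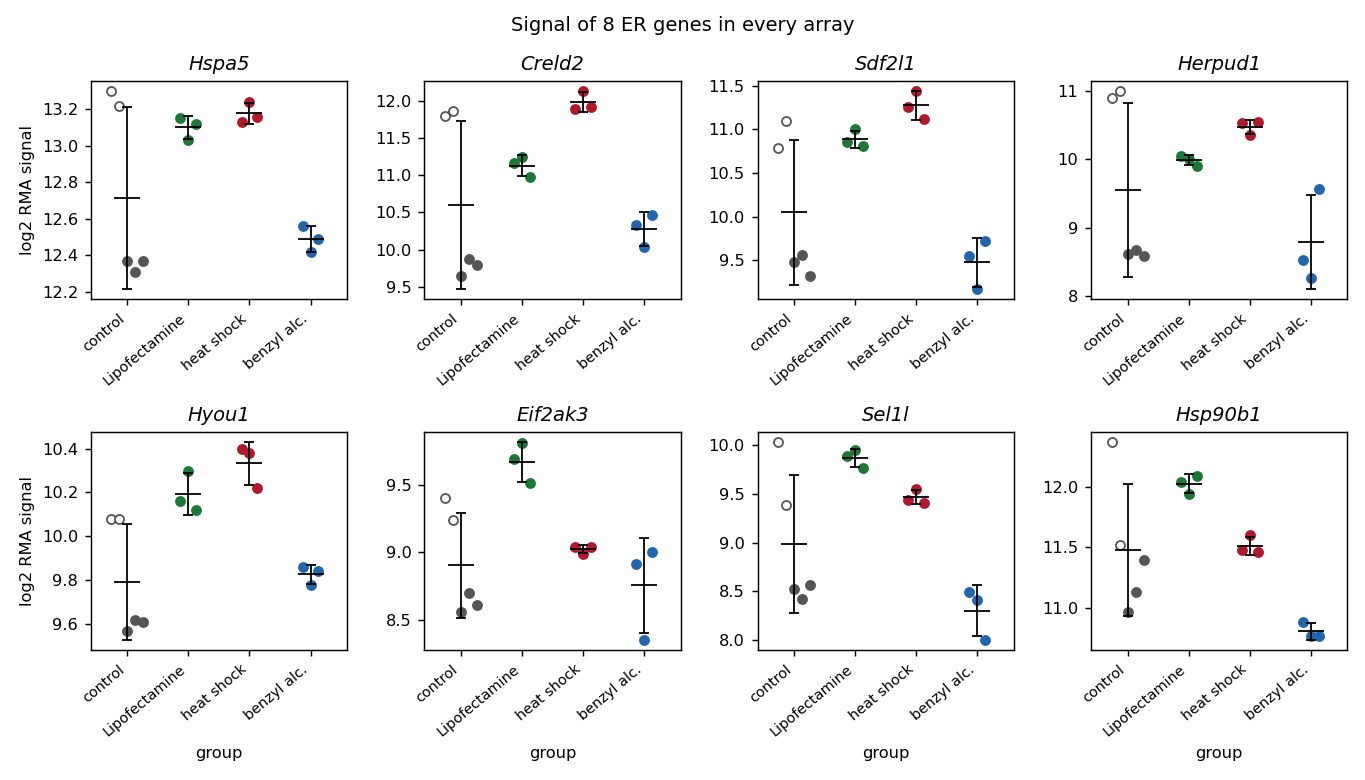
Log2 RMA signal (vertical axes, which start at a different level in each panel) of 8 genes in every array of the 4 groups (horizontal axes). Open circles are control arrays 1 and 3, filled circles all other arrays, and black dashes with bars the mean ± SD of the 5 control or 3 treated arrays. For Creld2 and Herpud1 the Lipofectamine arrays lie between the sets of control arrays, while the Lipofectamine arrays of Eif2ak3 (9.69, 9.81 and 9.51) lie above every control array.

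With Lipofectamine, 1 of the 36 genes rose and 0 fell against all 5 control arrays, beside 1.69% of all genes that rose and 3.33% that fell. The gene was Eif2ak3, which encodes the sensor kinase PERK. Its signal was 9.40 and 9.24 in control arrays 1 and 3, 8.56, 8.70 and 8.61 in the others, and 9.69, 9.81 and 9.51 with Lipofectamine. All 3 Lipofectamine arrays lay above all 5 control arrays. The change was 0.77 (SE 0.177, 1.70-fold, adjusted p = 0.026 by limma), and the other 2 probesets of the gene differed by 0.00 and 0.30. Those 2 are dim, with mean signals of 4.17 and 5.14 beside 9.06 for the brightest, under the array medians. The call was lost without control array 2, 4 or 5 and without any 1 of the Lipofectamine arrays, where the highest adjusted p was 0.117.

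The other genes moved with Lipofectamine by amounts that did not pass. Of the 36, 33 had a positive difference (43.8% of all genes) and the median was 0.40, against −0.02 over all genes, and 15 had an unadjusted p under 0.05, beside 18.9% of all genes. Chaperones had the highest median by role (0.531) and translocation genes the lowest (0.172), and the largest difference was that of Pdia4 (0.91). Against control arrays 2, 4 and 5 the median was 0.768, and 33 genes had all 3 Lipofectamine arrays above these control arrays, beside 12.4% of all genes. Against control arrays 1 and 3 the median was −0.06 and 10 genes had all Lipofectamine arrays below both, beside 17.3% of all genes. All 3 Lipofectamine arrays were above all 5 control arrays in 3 genes, Hyou1, P4hb and Eif2ak3 (3.55% of all genes). Described with control arrays 1 and 3 left out, limma called 30 higher (8.09% of all genes). With control arrays 2, 4 and 5 left out it called 4 lower (3.45% of all genes), Atf6, Creld2, Ero1a and Herpud1, and 0 higher.

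With heat shock, 1 of the 36 rose and 0 fell against all 5 control arrays, beside 0.888% and 4.15% of all genes. The gene was Hyou1, a large chaperone of the ER that exchanges nucleotide on BiP. It read 10.08 and 10.08 in control arrays 1 and 3, 9.57, 9.62 and 9.61 in the others, and 10.40, 10.38 and 10.22 with heat shock. Its heat shock arrays lay above all control arrays, and so did its Lipofectamine arrays (10.16, 10.30 and 10.12). The heat shock change was 0.54 (SE 0.134, 1.45-fold, adjusted p = 0.0328 by limma), while the other 2 probesets differed by −0.20 and 0.18. The call was lost without control array 2, 4 or 5, without any 1 of the heat shock arrays and without Lipofectamine array 1, where the adjusted p reached 0.148. It was also lost with cross-hybridizing probesets left out (0.178) and with the mean of the probesets of a gene (0.171), values that are log2 changes.

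The median of the 36 with heat shock was 0.458, against 0.04 over all genes, with 34 differences positive (57.7% of all genes) and 18 at an unadjusted p under 0.05 (21.7% of all genes). Chaperones had the highest median by role (0.756) and the sensors the lowest (0.122). Against control arrays 2, 4 and 5 the median was 0.795, and 33 genes had all heat shock arrays above these, beside 20.4% of all genes. Against control arrays 1 and 3 the median was −0.05, and 9 genes had all heat shock arrays below both, beside 21% of all genes. Heat shock arrays were above all 5 control arrays in 7 genes, namely Hyou1, Sdf2l1, Creld2, Pdia4, Ero1b, Derl3 and Sec61b (7.98% of all genes). Ero1b, a second oxidase of the disulfide pathway, read 8.39, 8.27 and 8.22 with heat shock, above the highest control value of 8.15. As a description again, the call counts were 32 higher with control arrays 1 and 3 left out (7.89% of all genes) and 2 lower, Ero1a and Herpud1, with control arrays 2, 4 and 5 left out (2.85% of all genes).

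With benzyl alcohol, 0 of the 36 rose and 0 fell against all 5 control arrays by limma, beside 0.726% and 0.694% of all genes, and 4 had an unadjusted p under 0.05 (13.3% of all genes). The median was −0.23, against 0.02 over all genes, with 4 positive differences (54.7% of all genes). Benzyl alcohol arrays lay with the lower control arrays. Against control arrays 2, 4 and 5 the median was 0.102. In 5 genes, Hspa5, Hyou1, Dnajb11, Creld2 and Pdia3, all benzyl alcohol arrays were above these control arrays (6.73% of all genes). Against control arrays 1 and 3 the median was −0.68, and 31 genes had all benzyl alcohol arrays below both, beside 19.2% of all genes. The exceptions were Dnajb9, Ern1, Derl3, Sec61b and Ssr3. In 0 genes were they above all 5 control arrays (3.2% of all genes). In the same description without control arrays 1 and 3, limma called 1 gene higher, Creld2 (1.29% of all genes), and left without control arrays 2, 4 and 5 it called 27 lower (8.31% of all genes).

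**Figure D3:**
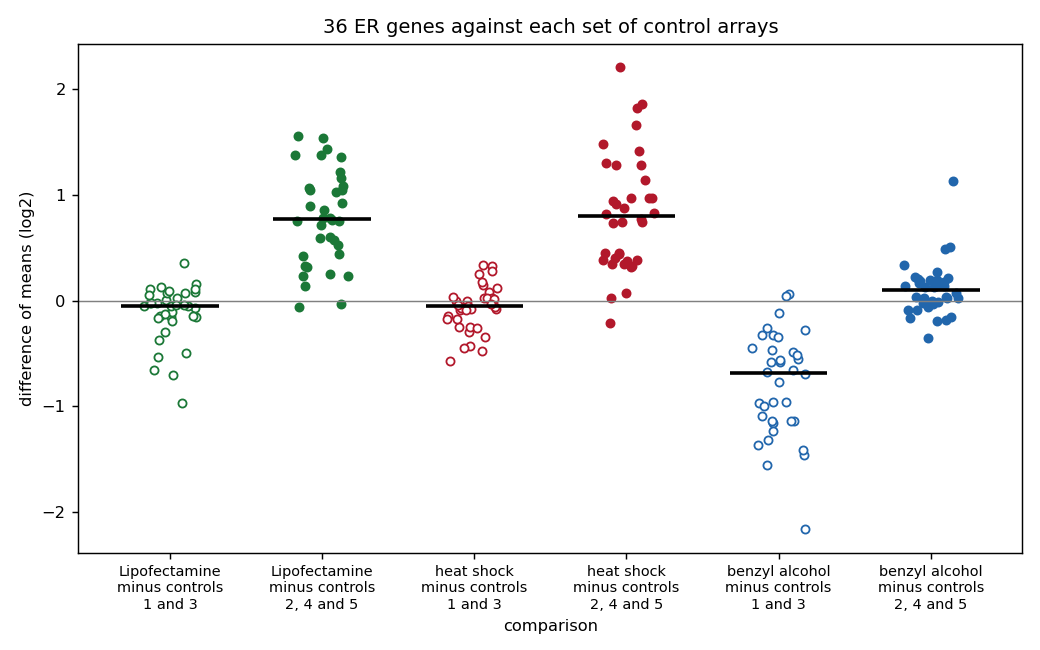
Difference of mean log2 signal (vertical axis) of each treatment from control arrays 1 and 3 (open circles) or from control arrays 2, 4 and 5 (filled circles), with a point for each of the 36 genes and a bar at the median. The Lipofectamine and heat shock medians are near 0 against control arrays 1 and 3 and at 0.768 and 0.795 against the others, and the benzyl alcohol median is at −0.681 and 0.102.

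The comparison of treatments with each other does not set any group against the divided control arrays, although these enter the estimate of the spread. It is not free of the division, as each treated group lay near 1 set of control arrays. Benzyl alcohol lay near control arrays 2, 4 and 5 (median 0.102), heat shock and Lipofectamine near control arrays 1 and 3 (−0.05 and −0.06). Those sets differed by a median of 0.872. The part of the division in the differences between treatments was not tested. Benzyl alcohol arrays were lower than heat shock arrays in 12 of the 36 genes and higher in 0, beside 2.04% of all genes that were lower and 5.35% that were higher. The median was −0.61, against −0.03 over all genes, with 1 positive difference, that of Ern1. By role, 4 of 9 chaperones were lower, 2 of 6 disulfide enzymes, 1 of 2 lectins, 5 of 9 ERAD genes, and 0 of 5 sensors and 0 of 5 translocation genes. Over all 36, without a test, the benzyl alcohol arrays lay below every heat shock array in 31 (16.5% of all genes) and above in 1 (16.3% of all genes).

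Sdf2l1 differed most, with its benzyl alcohol arrays at 9.55, 9.17 and 9.72 and its heat shock arrays at 11.26, 11.44 and 11.12 (−1.79, SE 0.365, adjusted p = 0.0123 by limma). Ero1b was at 6.98, 6.92 and 7.16 with benzyl alcohol and at 8.39, 8.27 and 8.22 with heat shock (−1.27, SE 0.28, adjusted p = 0.017). Its other 2 probesets, of lower mean signal (6.24 and 6.76, beside 7.54 for the brightest), differed by −0.56 and 0.10. The difference of Ero1b was thus not shared by each of its probesets. Pdia4 differed by −1.44 (SE 0.377, adjusted p = 0.034) and by −0.22 at its other probeset, which is dim (mean signal 7.05, beside 10.7). Creld2 differed by −1.70 (adjusted p = 0.0448), Dnajc3 by −1.09, Hyou1 by −0.51 and the lectin Calr, which holds glycoproteins for folding, by −0.51.

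Of the ERAD genes, Syvn1, a ubiquitin ligase of the ER membrane, was at 9.26, 8.76 and 8.59 with benzyl alcohol and at 10.03, 9.99 and 9.99 with heat shock (−1.13, SE 0.257, adjusted p = 0.0194 by limma). Sel1l, its partner, was at 8.49, 8.41 and 8.00 against 9.44, 9.55 and 9.41 (−1.16, SE 0.314, adjusted p = 0.0381). Vimp, a selenoprotein of the ER membrane, was at 10.45, 9.96 and 10.53 against 11.39, 11.46 and 11.25 (−1.05, SE 0.273, adjusted p = 0.0334). Every benzyl alcohol array of these genes lay under every heat shock array. Os9, a lectin that delivers glycoproteins to Sel1l, differed by −0.475, and Edem1, which trims mannose from such proteins, by −0.889. Their other probesets differed less, by −0.099 for Os9 and −0.418 for Edem1. Further probesets of Sel1l differed by −1.59 to −0.271 and those of Vimp by −1.08 to −0.874. Herpud1 had a large difference (−1.68) that did not pass. The spread of the fit is taken over all groups, and the SD of Herpud1 was 1.279 over the control arrays. It was 0.691 over the benzyl alcohol arrays, which ranged from 8.27 to 9.57.

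Against Lipofectamine, benzyl alcohol arrays were lower in 13 of the 36 genes and higher in 0, beside 4.82% and 7.12% of all genes. The median was −0.57, against 0.04 over all genes. The 13 were 3 chaperones, 3 disulfide enzymes, 1 lectin, 1 sensor, 4 ERAD genes and 1 translocation gene. Without a test, the benzyl alcohol arrays lay below every Lipofectamine array in 31 of the 36 (12% of all genes) and above in 0 (15.7% of all genes). Hsp90b1, the HSP90 of the ER, had the smallest p (−1.21, SE 0.241, adjusted p = 0.0053 by limma), with −0.679 at its other probeset. Its signal was 10.89, 10.77 and 10.77 with benzyl alcohol and 12.04, 11.94 and 12.09 with Lipofectamine. Hsp90b1 is the gene in which all benzyl alcohol arrays were also below control arrays 2, 4 and 5 (10.97, 11.13 and 11.40). Sel1l was at 8.49, 8.41 and 8.00 against 9.89, 9.95 and 9.77 (−1.57, SE 0.314, adjusted p = 0.00545), and its other 3 probesets differed by −1.99 to −0.98.

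Syvn1 was at 10.14, 10.18 and 9.90 with Lipofectamine, above each of its benzyl alcohol arrays (−1.20, SE 0.257, adjusted p = 0.00763 by limma). Eif2ak3 was at 8.91, 8.35 and 9.0 with benzyl alcohol, a difference of −0.92 (SE 0.211, adjusted p = 0.0115 by limma). Its other probesets, both dim (mean signals of 4.17 and 5.14), differed by −0.304 and −0.00168. Calr was at 12.24, 12.05 and 12.16 against 12.78, 12.70 and 12.72 (−0.58, SE 0.141, adjusted p = 0.0142). Edem1 was at 9.43, 8.96 and 9.13 against 10.30, 10.31 and 10.06 (−1.06, SE 0.257, adjusted p = 0.0149 by limma, and −0.486 at its other probeset). All 3 had benzyl alcohol arrays below every Lipofectamine array. The remaining genes that were lower were Sdf2l1 (−1.41), Pdia4 (−1.33), Pdia6, another isomerase (−1.03), P4hb, the isomerase PDI (−0.45), Dnajc3 (−0.98), Vimp (−0.97) and Sec61a1, the pore of the channel (−0.47). The other probeset of Pdia4 differed by −0.0424 and that of Pdia6 by −0.0346. Both are dim, with mean signals of 7.05 and 6.88 beside 10.7 and 11.6 for the brightest. Other probesets of Sec61a1 differed by −1.46 to 0.128. Those of Dnajc3 (−0.813 to −0.355) and Vimp (−1.04 to −0.655) were all lower.

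Calls were fewer in most fits with 1 array less, over these genes and over all probesets. Against heat shock, leaving out heat shock array 1, 2 or 3 gave 1, 0 or 1 calls in place of 12, while the share of all probesets called was 1.94%, 1.37% or 1.43% in place of 7.22%. Leaving out benzyl alcohol array 1, 2 or 3 gave 1, 2 or 3 (1%, 4.91% or 4.61% of all probesets), leaving out Lipofectamine array 1 or 2 gave 4 or 7 (4.48% or 6.45%), and leaving out control array 3 gave 21 (10.2%). Against Lipofectamine, 4, 7 or 7 calls in place of 13 came from leaving out Lipofectamine array 1, 2 or 3, and 8, 5 or 8 from leaving out benzyl alcohol array 1, 2 or 3. Over all probesets the shares were 5.66%, 9.22% or 7.88% and 7.48%, 9.83% or 6.7%, in place of 11.9%. Hsp90b1, Eif2ak3, Sel1l and Syvn1 were called against Lipofectamine whichever array was left out. When only the arrays of the groups compared were fitted, so that the control arrays gave no part of the spread, 27 genes were lower against heat shock (5.9% of all genes) and 25 against Lipofectamine (5.76% of all genes).

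**Figure D4:**
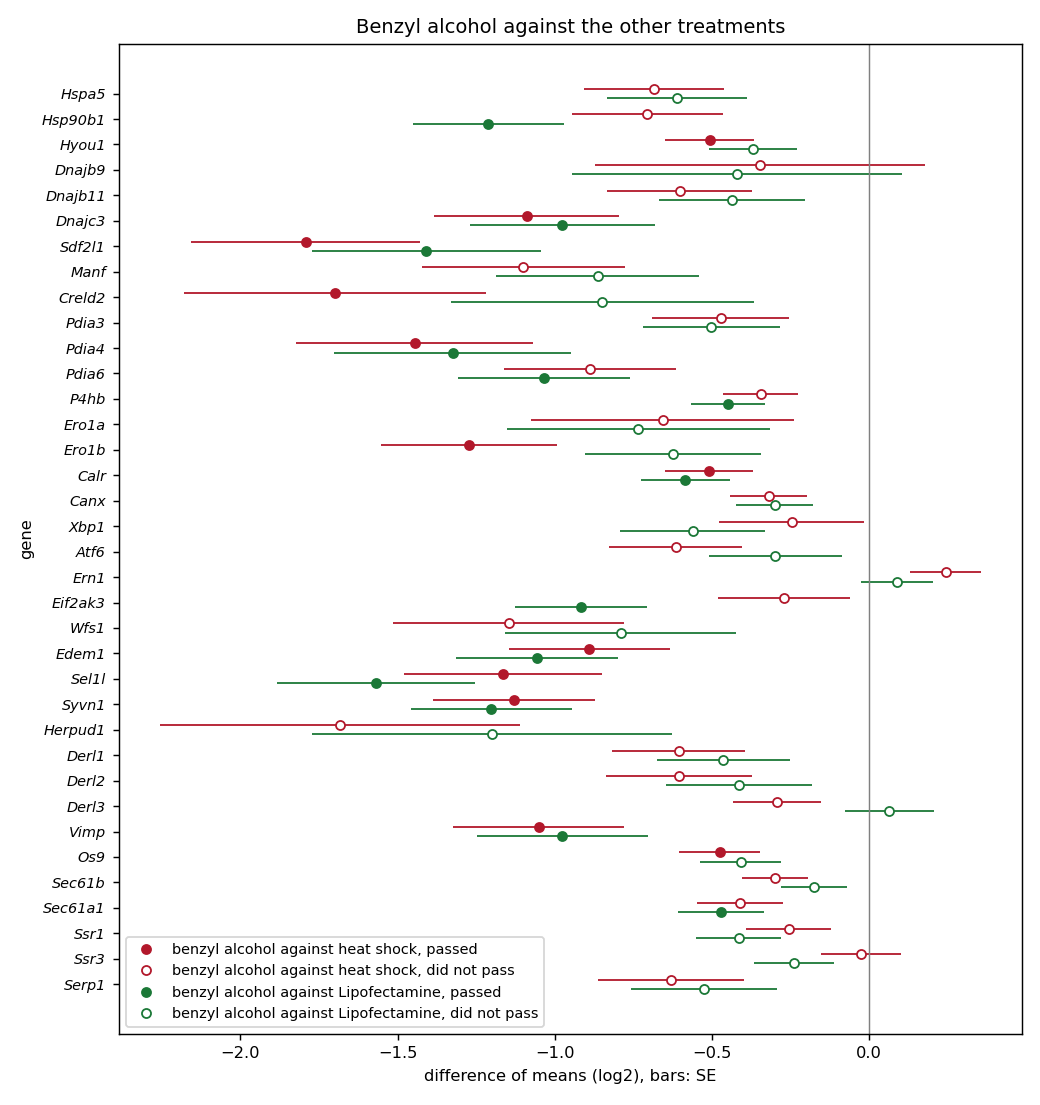
Difference of mean log2 signal (horizontal axis, bars are the SE of the fit) of the benzyl alcohol arrays from the heat shock arrays (red) and from the Lipofectamine arrays (green) for each of the 36 genes (vertical axis). Filled circles passed at an adjusted p under 0.05, and they lie left of 0, with Sdf2l1 at −1.79 against heat shock and Sel1l at −1.57 against Lipofectamine.

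Between Lipofectamine and heat shock, 0 of the 36 differed by limma in the fit with the control arrays, beside 3% of all genes higher with Lipofectamine and 1.18% lower. The median was −0.071, beside −0.0679 over all genes, and 3 had an unadjusted p under 0.05 (18.2% of all genes). Without a test, all Lipofectamine arrays lay above all heat shock arrays in 8 of the 36 (12.2% of all genes) and below in 8 (15.9% of all genes). With only these groups fitted, 3 were higher with Lipofectamine (6.32% of all genes), Eif2ak3 (0.65), Hsp90b1 (0.51) and Sel1l (0.41), and 4 were lower (3.61% of all genes), Creld2 (−0.85), Ero1b (−0.65), Herpud1 (−0.49) and Sdf2l1 (−0.39). The count of 3 is near the share of all genes, and the names are a description only. Further probesets differed by 0.0981 and 0.31 for Eif2ak3 (both dim), 0.0278 for Hsp90b1 and 0.148 to 0.887 for Sel1l. For Ero1b they differed by −0.0577 and 0.0233, and for Herpud1 by −0.695.

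Ern1 and Derl3 had no gap between the sets of control arrays. Their mean signals, 7.219 and 6.809, were near the array medians (percentiles 45.7 and 37.3 among genes). Whether such low signals could report a change was not tested. Ern1, whose product IRE1 cuts the XBP1 messenger, ranged from 7.01 to 7.52 over the 14 arrays, and Derl3 from 6.39 to 7.14. Derl3 carries the ER stress response element before its start. Its relatives Derl1 and Derl2, channel proteins of ERAD, differed by 0.794 and 0.745 between the sets of control arrays. Ssr1, of the translocon-associated complex, ranged from 10.08 to 10.99, Ssr3 from 11.30 to 11.91 and Sec61b, a small subunit of the channel, from 11.60 to 12.06. Serp1, which shields unfinished proteins at the channel, had 11.78 and 12.00 in control arrays 1 and 3 and 10.78, 11.04 and 11.25 in the others. Canx, the membrane-bound lectin beside Calr, differed by 0.344. In the group called sensors, the factor Xbp1 differed by 0.883 and the sensor Atf6 by 0.79. The spliced and unspliced messengers of Xbp1 were not told apart here. Atf6 was at 7.31, 7.58 and 7.43 with benzyl alcohol and 8.32 and 8.47 in control arrays 1 and 3.

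Probesets of the same gene did not always report the same difference. Some of the further probesets, such as those of Eif2ak3, had mean signals under the array medians. Of the 45 further probesets of 23 genes, the sign was that of the brightest in 40 with Lipofectamine against control, 31 with heat shock, 39 with benzyl alcohol, 29 in Lipofectamine against heat shock, 39 in benzyl alcohol against heat shock and 41 in benzyl alcohol against Lipofectamine. Of those that belong to called genes, 4 of 18 were called lower in benzyl alcohol against heat shock and 9 of 22 against Lipofectamine, and 0 were called in the opposite direction. The 45 were higher in control arrays 1 and 3 in 36, with a median of 0.47.

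Other genes of the same pathway were read from fixed lists. Genes of ATF4 and CHOP, the branch of the response below PERK, divided the control arrays more widely, by a median of 1.48. Control arrays 1 and 3 were both above in 30 of 32 (19.5% of all genes). In benzyl alcohol against heat shock 9 of the 32 were lower and 0 higher (median −1.11), beside 2.04% and 5.35% of all genes. Among the 9 were the amino acid enzymes Phgdh (−0.85, adjusted p = 0.0067 by limma) and Asns (−1.49, adjusted p = 0.0218). Against Lipofectamine 7 of the 32 were lower (4.82% of all genes). Further genes of folding, of translocation and sugar transfer, of glycan trimming and ERAD and of ER to Golgi transport had smaller medians between the sets of control arrays, 0.142, 0.23, 0.206 and 0.208. Of 30 further genes of glycan trimming and ERAD, 4 rose and 1 fell with Lipofectamine, beside 1.69% and 3.33% of all genes. The smallest adjusted p were those of Ubxn8 (0.67, adjusted p = 0.00335 by limma) and Ufd1 (0.53, adjusted p = 0.0169), which link ERAD to the p97 ATPase. In benzyl alcohol against Lipofectamine 11 of the 30 were lower and 1 higher, beside 4.82% and 7.12% of all genes. Among the 11, Ufd1 had the smallest adjusted p (−0.84, adjusted p = 0.00113 by limma). Of 38 transport genes, 1 rose with Lipofectamine (1.69% of all genes), the coat subunit Sec24d (1.18, adjusted p = 0.00873 by limma). With benzyl alcohol against Lipofectamine 8 were lower and 1 higher, beside the same 4.82% and 7.12%.

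**Figure D5:**
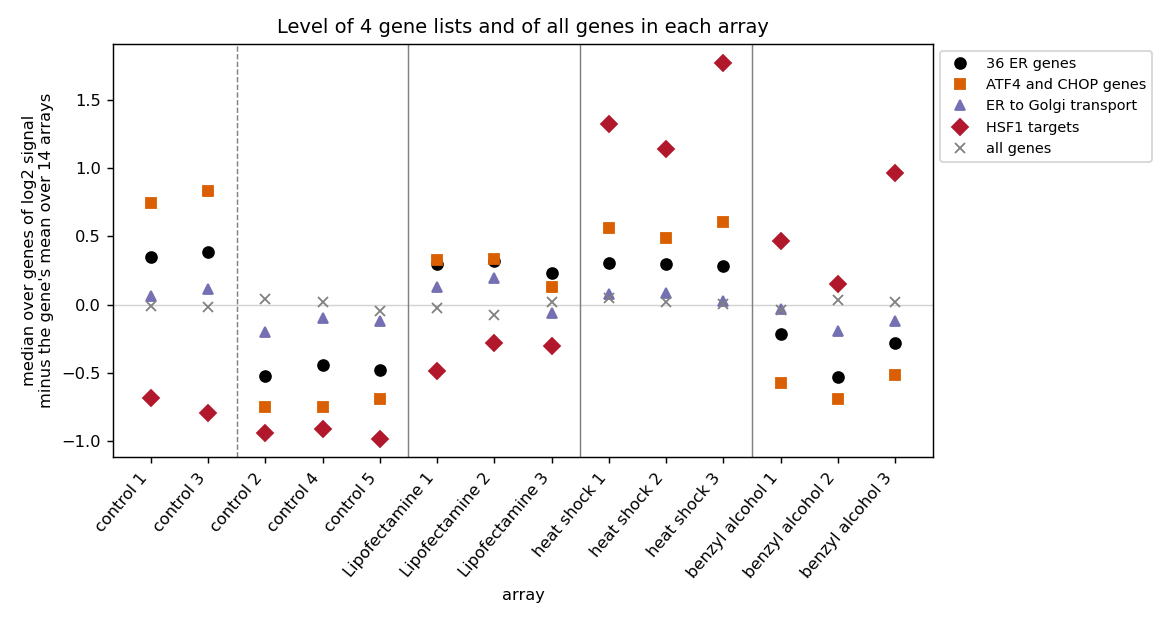
Median over the genes of a list of the log2 signal minus the mean of each gene over the 14 arrays (vertical axis), in each array (horizontal axis). The 36 ER genes and the ATF4 and CHOP genes are high in control arrays 1 and 3 (0.348 and 0.386 for the ER genes) and low in control arrays 2, 4 and 5 (−0.526, −0.443 and −0.480), while the HSF1 targets are high with heat shock and benzyl alcohol.

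Of 14 further sensors and regulators of the response, 1 rose with benzyl alcohol against control (0.726% of all genes), Creb3l2 (0.76, adjusted p = 0.00564 by limma). The median of the 14 between the sets of control arrays was 0.0341. The targets of HSF1, the factor that drives cytosolic chaperones under heat, took another course than the ER genes. Of 12, 9 rose with heat shock (median 2.22), 7 with benzyl alcohol (1.46) and 3 with Lipofectamine (0.404), beside 0.888%, 0.726% and 1.69% of all genes. The median of the 12 between the sets of control arrays was −0.06. Benzyl alcohol thus raised 7 of these 12 targets, Hspb1 by 4.56 (adjusted p = 5.48e-10 by limma). In the same arrays 0 of the 36 ER genes passed as higher against all 5 divided control arrays. Against control arrays 2, 4 and 5 alone the median of the ER genes was 0.102. Genes of pigment cells had a median of −0.221 between the sets, with control arrays 1 and 3 both below in 5 of 8. With heat shock 2 of the 8 fell against all 5 control arrays (4.15% of all genes). Sox10 changed by −0.98 and Tyr by −0.39 there. Sox10 was at 10.62, 10.42 and 10.69 with heat shock. It was at 10.97 and 11.22 in control arrays 1 and 3 and at 11.92, 11.93 and 11.73 in the others. The macrophage list held Cd68, a lysosomal gene of many cells, which rose by 0.90 with benzyl alcohol (adjusted p = 0.00374), while the list means stayed between 6.21 and 6.68 in all arrays. The part of these markers in the differences of the ER genes was not tested.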

How the data were processed

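RNA of 14 samples was hybridized to Affymetrix mouse arrays. The authors scanned them with GCOS 1.2 and converted them by RMA, and the deposited values are log2 signals. Which arrays were processed together is not given in the sources used here. Depth does not apply to arrays, and their number limits the precision. With R 4.3.3 and limma 3.58.1, 64 Affymetrix control probesets were left out and 22626 tested with no filter on signal. Control, Lipofectamine and heat shock were fitted together on 11 arrays (5.51 prior degrees of freedom), and comparisons with benzyl alcohol on all 14 in their 4 groups. The Benjamini-Hochberg threshold was 0.05. Alternatives were other arrays in the fit, a variance trend, array weights, quantile normalization, equal medians, filters on dim or cross-hybridizing probesets, the mean over probesets of a gene, the threshold of the methods (0.001), the replicate number as a block, either set of control arrays left out, and each array left out. Simulated data were used to test the code.

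The genes, lists and tests were chosen with earlier results of these data known. Values in every array are given for up to 6 genes that passed in each comparison, by smallest adjusted p, and for the 6 with the largest gap between the sets of control arrays, and others were added where they make a role clear. Of other lists, up to 3 genes that passed are named. Vimp is Selenos in the annotation of the array, which is of an older date. Promoter stretches are RefSeq's, and the 5 genes Atf6, Derl1, Hyou1, Manf and Sec61a1 had none in the table used.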

Additional observations from a re-analysis of the deposited data

Results flagged for a closer look

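The signal of Ssr3 in control array 1 was 11.91, apart from the other control arrays at 11.37 to 11.50, a gap of 0.767 of the range of the 5 control arrays. Chance sets apart about 1 in 20 groups of this size. Of the 36 genes, 1 had such an array in the control group, and groups of 3 arrays were not examined for it.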

How the results depend on the processing

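With control arrays 1 and 3 left out, the number of the 36 genes called was 30 for Lipofectamine against control, 32 for heat shock, 1 for benzyl alcohol, 8 for Lipofectamine against heat shock, and 29 and 29 for benzyl alcohol against heat shock and against Lipofectamine, beside 18.8%, 21.8%, 3.03%, 13.6%, 15.5% and 19.2% of all probesets, and the medians against control were 0.768, 0.795 and 0.102. With control arrays 2, 4 and 5 left out the counts were 4, 2, 27, 4, 27 and 27 (4.62%, 3.72%, 12.5%, 11.6%, 13.9% and 17.4% of all probesets), and the medians against control were −0.0552, −0.0537 and −0.681, so that the direction of the Lipofectamine and heat shock medians turned. The arrays left out fix these directions and the excess of calls, which support nothing. With only the groups compared the counts were 0, 0, 0, 7, 27 and 25 (2.02%, 4.41%, 0.358%, 12.8%, 14.7% and 12.7%), and with array weights 31, 28, 0, 11, 28 and 32 (36.7%, 26%, 4.21%, 48.7%, 19% and 39%). At the threshold of the methods they were 0, 0, 0, 0, 3 and 6 (2.27%, 2.43%, 1.67%, 2.88%, 3.66% and 6.09% of all probesets). Heat shock against control gave 3 with all 14 arrays, 3 with a variance trend, 2 with quantile normalization, 3 without the dimmer probesets and 2 without cross-hybridizing ones, where Hyou1 was not among them. Of the probesets fitted, 6.38%, 5.85%, 5.5%, 10.2% and 6.25% were called there. Benzyl alcohol against heat shock gave 6 with equal array medians (5.85% of all probesets).

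Left out in turn, single arrays gave 0 to 11 calls for Lipofectamine against control (11 without control array 1, 8 without control array 3) with medians of 0.294 to 0.548, and 0 to 16 for heat shock (11 and 16 without control arrays 1 and 3) with medians of 0.343 to 0.593. Benzyl alcohol against control gave 0 to 0 calls with medians of −0.31 to −0.10, Lipofectamine against heat shock 0 to 2 (−0.08 to −0.03), benzyl alcohol against heat shock 0 to 21 (−0.70 to −0.56) and against Lipofectamine 4 to 16 (−0.62 to −0.50). In the same order, the shares of all probesets ran from 1.13% to 10%, 1.14% to 11.7%, 0.579% to 1.95%, 1.87% to 7.81%, 1% to 10.2% and 5.66% to 14.1%. Of the changes of single genes that were called, 0 turned direction under any alternative. The cause of these shifts was not tested. Whether replicate numbers pair the samples could not be settled from so few arrays a group. Of 18 same-numbered pairs, 3 correlated above 0.1, with a range of −0.56 to 0.442, and pairs with other numbers ranged from −0.653 to 0.633. The replicate block gave 0, 0, 0, 0, 17 and 16 calls, with 0 for Lipofectamine and for heat shock against control, where 1 had passed without it. Over all probesets the shares with the block were 0.822%, 0.849%, 1.26%, 4.42%, 8.2% and 11.5%.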
